A study of Mus musculus with 13 samples.

Results

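The Hippo kinase core and its upstream regulators were examined as 10 genes, Wwc1, Wwc2, Nf2, Sav1, Stk3, Stk4, Lats1, Lats2, Mob1a and Mob1b, out of 20807 protein-coding autosomal genes. The genes were chosen by name as members of the pathway, with earlier results of these lists known, and their data are the H3K27ac peaks that overlapped each gene or the 5 kb on either side of it. H3K27ac, acetylation of lysine 27 of histone H3, marks active promoters and enhancers. Peak lists came from 9 mouse cell lines, each grown from a melanoma of a transgenic animal kept on a C57BL/6J background. All lines came from animals that carried the Tyr::NRAS transgene with the NRAS Q61K change. These animals were Cdkn2a+/- and had floxed Cdh1, the E-cadherin gene, on both alleles (Cdh1 F/F). Whether the lines kept the intact Cdkn2a allele was not examined here. The ΔEcad lines also carried Tyr::Cre, which is active in the melanocyte lineage and deletes Cdh1, and the Ecad lines did not. Ma_1007 and Ma_1181 were male Ecad, Ma_1014 and Ma_1039 female Ecad, Ma_1062 and Ma_1456 male ΔEcad, and Ma_1057, Ma_1064 and Ma_1069 female ΔEcad. Each line had 1 list, so a group's SD is the spread between lines, technical differences included. The labels do not state whether lines of the same group came from separate animals. The comparisons bear on whether loss of E-cadherin goes with different active chromatin in females and males at these genes.

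Hippo signalling is a kinase cascade that restrains the transcriptional coactivators YAP1 and TAZ (encoded by Wwtr1), which act with TEAD factors on genes of growth and invasion. The kinases STK3 and STK4 (MST2 and MST1), held by the scaffold SAV1, phosphorylate LATS1 and LATS2 and their coactivators MOB1A and MOB1B, and the LATS kinases then phosphorylate YAP1 and TAZ, which are kept in the cytoplasm. NF2 (merlin) and the scaffolds WWC1 (KIBRA) and WWC2 act upstream at the cell cortex, where junctions built on E-cadherin are among the inputs.

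The lists held between 20741 peaks (Ma_1069) and 41663 peaks (Ma_1007) and covered between 29.5 and 67.2 Mb. The 3 female ΔEcad lists covered 29.5 to 39.5 Mb and the 6 others 37.1 to 67.2 Mb. Median peak width was 943 to 1019 bp in female ΔEcad and 1059 to 1195 bp in the other lines. The depth behind each list is unknown, and a region with no peak is a region below the threshold, not one without the mark. Peaks also cannot tell fewer cells carrying the mark from a weaker mark in each cell. Promoters of all 6 melanocyte markers were called in all 9 lists. Of the 7 markers of leukocytes, macrophages, endothelium, keratinocytes and fibroblasts, 5 had no promoter call in any list, the macrophage gene Cd68 was called in the 4 male lists alone and Pdgfra in 1 list, and their summed covered length was 5.47 to 7.02 kb in female ΔEcad and 9.33 to 15.6 kb in the other lines. The leukocyte gene Ptprc was covered over 0.764 kb in Ma_1057 and 1.82 kb in Ma_1069 and over 0 kb in the other 7 lines, and its part in the results below was not tested. No list had a peak at the Cdh1 promoter, and the mark does not read the deletion, so Cdh1 does not check the labels. Cdh1 had 1.66 to 3.16 kb of peaks in the female ΔEcad lines, 4.45 and 7.38 kb in the male ΔEcad lines and 5.14 to 8.79 kb in the Ecad lines.

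Sequence is shown for 4 windows at or next to places where the lists differed, on GRCm38.p6 (mm10). The first is 300 bp around the summit of the strongest region called in all 3 female ΔEcad lists and in no other list, which lies in intron 1 of Wwc1 (chr11:35940602-35940901, plus strand, peak summit of Ma_1069). The others are the 250 bp before the RefSeq start of the 3 genes whose promoter was called in some lists and not in others, which are Wwc1 (chr11:35980528-35980777, minus strand), Wwc2 (chr8:47990545-47990794, minus strand) and Stk4 (chr2:164073888-164074137, plus strand). Capitals mark matches, on either strand, to CTTTGA (TCF/LEF), GGAATG (TEAD), TGANTCA (AP-1) or CATGTG (an E-box read by MITF). No matches overlapped each other. Other forms of these motifs, such as the E-box CACGTG, were not searched and are not in capitals.
Wwc1 intronic region: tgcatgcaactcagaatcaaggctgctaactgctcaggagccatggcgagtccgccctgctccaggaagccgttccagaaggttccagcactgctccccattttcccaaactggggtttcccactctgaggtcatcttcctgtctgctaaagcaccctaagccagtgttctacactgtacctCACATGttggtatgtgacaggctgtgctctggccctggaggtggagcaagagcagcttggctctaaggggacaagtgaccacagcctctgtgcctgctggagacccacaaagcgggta
Wwc1 promoter: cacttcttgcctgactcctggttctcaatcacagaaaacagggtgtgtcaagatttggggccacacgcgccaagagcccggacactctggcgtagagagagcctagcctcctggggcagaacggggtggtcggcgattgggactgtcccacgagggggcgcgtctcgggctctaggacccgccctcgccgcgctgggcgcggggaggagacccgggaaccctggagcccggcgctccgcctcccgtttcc
Wwc2 promoter: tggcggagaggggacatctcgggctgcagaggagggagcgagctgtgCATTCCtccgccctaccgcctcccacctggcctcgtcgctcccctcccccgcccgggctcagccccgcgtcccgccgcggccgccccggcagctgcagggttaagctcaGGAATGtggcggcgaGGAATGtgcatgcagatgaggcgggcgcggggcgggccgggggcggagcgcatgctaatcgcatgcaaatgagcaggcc
Stk4 promoter: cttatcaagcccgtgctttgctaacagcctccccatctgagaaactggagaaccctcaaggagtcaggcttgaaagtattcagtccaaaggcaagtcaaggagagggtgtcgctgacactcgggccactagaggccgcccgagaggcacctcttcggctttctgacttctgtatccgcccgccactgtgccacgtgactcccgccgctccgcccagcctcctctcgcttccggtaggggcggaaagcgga
The Wwc1 intronic window held 1 match, to CATGTG, which was found in 17.3% of the 20350 summit windows of the same length in the list of Ma_1069. Ma_1057 and Ma_1069 had a peak over this intronic window, and Ma_1064 had its peak elsewhere in the region. The Wwc2 promoter held 3 matches to the TEAD motif. At least 1 such match was present in 12.6% of the 32851 RefSeq promoters and 3 or more in 0.0913% of them. The Wwc1 and Stk4 promoters held no match to these letters. No list had a peak over the Stk4 window, which ends just upstream of the nearest region (chr2:164074145-164075320).

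Wwc1 and Wwc2, which encode related scaffolds, went in opposite directions in the female ΔEcad lines. Wwc1 (chr11:35838400-35980527, minus strand) had 17.6, 7.78 and 17.8 kb of peaks in Ma_1057, Ma_1064 and Ma_1069. The other lines had 5.495 and 2.92 kb in male Ecad, 1.33 and 2.04 kb in female Ecad and 2.08 and 5.76 kb in male ΔEcad. Every female ΔEcad line was thus above every other line, with means of 14.4 ± 5.72 kb (SD, n = 3) and 3.27 ± 1.90 kb (SD, n = 6), a difference of 11.1 kb or 4.39 times. Of 14120 genes with a peak in at least 1 list, 0.758% separated in this direction and Wwc1 was the single case among the 10. Within females the ΔEcad lines lay 12.7 kb above the Ecad lines on average, whereas in males the groups overlapped.

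The added length of Wwc1 lay in its first intron, which spans 64.7 kb in the principal transcript. Peaks there formed 6 regions between 31.7 and 57.8 kb downstream of the start (chr11:35922745-35948871). Ma_1057 called all 6 regions, Ma_1069 called 5 and Ma_1064 called 3, with 12.8, 13.3 and 4.30 kb covered. Ma_1007 called 1 of the 6 (2.39 kb), Ma_1456 called another (1.065 kb), and the remaining 4 lines called none. The region shown above by sequence (chr11:35937786-35942923) was covered over 3835 bp in Ma_1057, 768 bp in Ma_1064 and 5138 bp in Ma_1069. Its peak stood at the 92.2nd, 71.3rd and 97.6th percentile of −log10 q within those lists, with deposited fold enrichments of 15.4, 9.86 and 16.5. Summits in Ma_1057 and Ma_1069 were 61 bp apart, and that of Ma_1064 lay 742 bp from the shown centre. The peak of Ma_1064 did not overlap the shown sequence. Of 62 merged regions over the 10 genes, this was the single region called in all female ΔEcad lists and in no other list. A neighbouring intronic region (chr11:35926337-35928341) was called in the 3 female ΔEcad lines at the 82.1st to 89.8th percentile and in Ma_1456 at the 55.2nd, and the next one (chr11:35931472-35935621) at the 73.9th to 95.3rd and in Ma_1007 at the 81.9th.

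**Figure D1:**
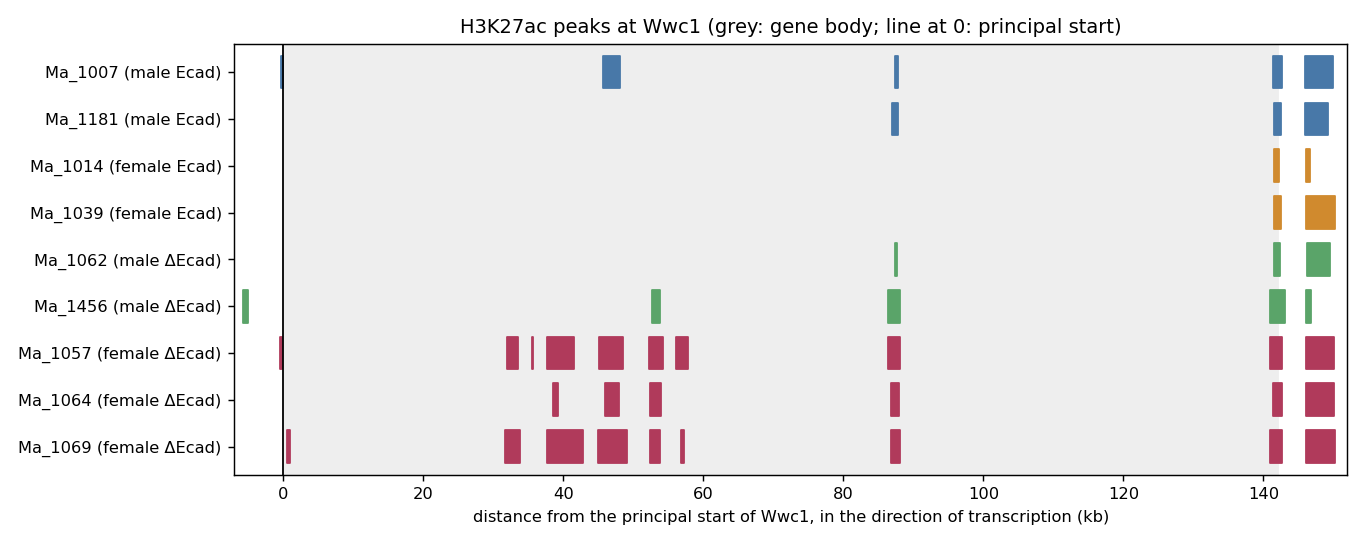
H3K27ac peaks at Wwc1 by line, as distance in kb from the principal start in the direction of transcription, with each bar a peak, colours for the 4 groups and grey for the gene body. The female ΔEcad lines carry 3 to 6 regions between 31.7 and 57.8 kb, where the other lines carry 0 or 1, and the bars beyond the gene end lie at the start of Rars and are present in all 9 lines.

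The start of Wwc1 itself was weakly marked where it was called. A peak within 1 kb of it was called in Ma_1007, Ma_1057 and Ma_1069, at the 9.83rd, 1.56th and 23.9th percentile, and these peaks were 290, 253 and 478 bp wide. None of them covered the start. At the outer edge of the window, a peak of Ma_1456 was counted because it reached to 4.97 kb upstream of the start. The window also took in part of a region over the start of the neighbouring gene Rars, called in all 9 lists. Without the flanks the means were 12.7 kb in female ΔEcad and 1.84 kb in the other lines, still without overlap.

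Wwc2 (chr8:47823959-47990924, minus strand) had no peak in any female ΔEcad list. The male Ecad lines had 0.915 and 1.98 kb, the female Ecad lines 5.66 and 2.57 kb and the male ΔEcad lines 1.865 and 1.31 kb (mean of the 6, 2.38 ± 1.70 kb, SD). A complete separation in this direction was frequent, since 21.0% of the 14120 genes lay below every other line in female ΔEcad, and Wwc2 was 1 of 10 here. Its promoter was called in the 4 Ecad lines and Ma_1062. Those peaks stood at the 44.2nd (Ma_1007), 64.5th (Ma_1181), 92.7th (Ma_1014), 81.8th (Ma_1039) and 85.3rd (Ma_1062) percentile, and their width was between 915 and 2617 bp. Ma_1456 lacked the promoter peak and kept a peak of 1307 bp about 4.52 kb downstream, a region also called in Ma_1181, Ma_1014 and Ma_1039.

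**Figure D2:**
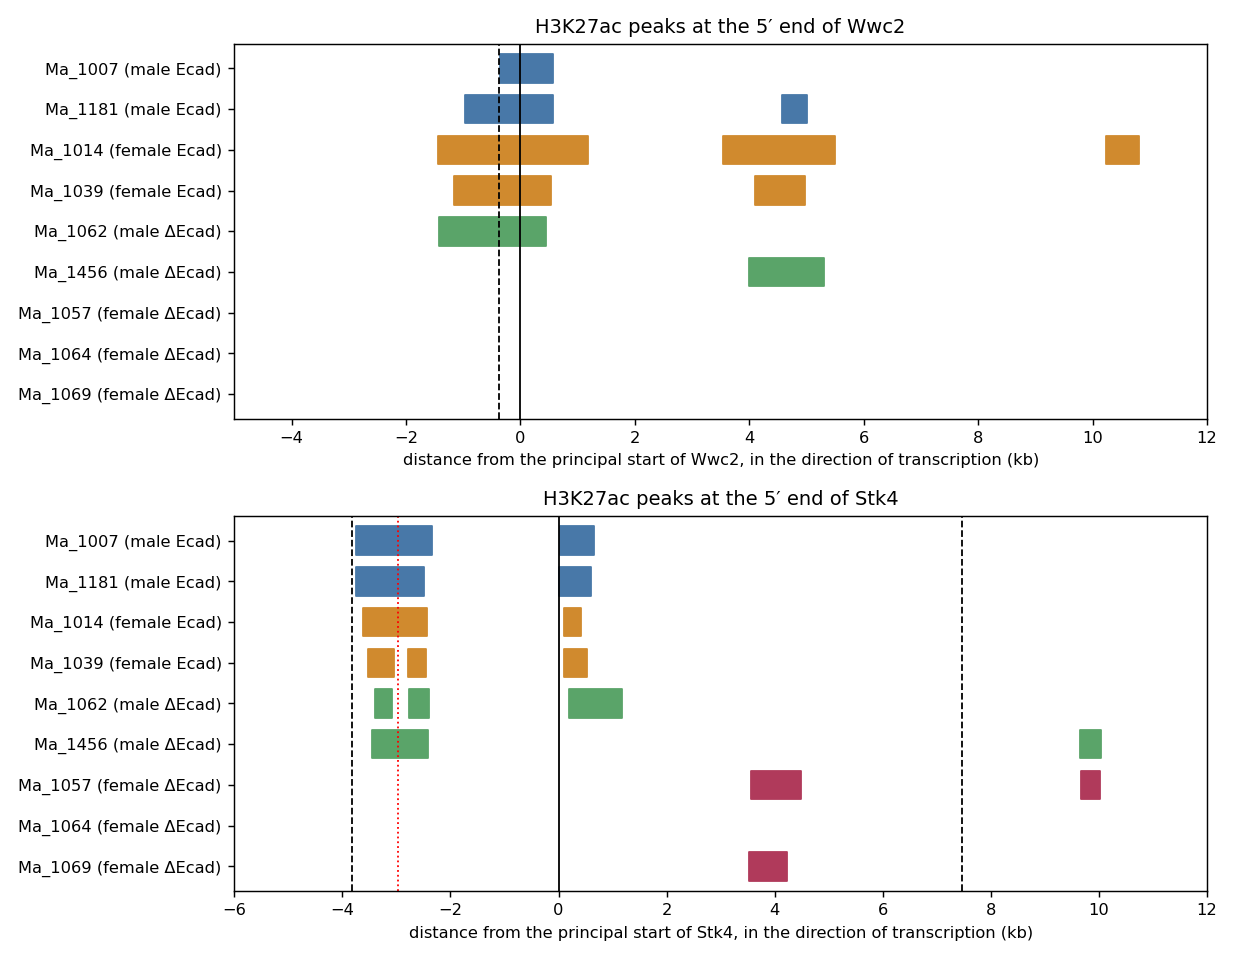
H3K27ac peaks around the 5′ ends of Wwc2 and Stk4 by line, as distance in kb from each principal start (solid line), with dashed lines for other annotated starts of the gene and a dotted red line for the start of Tomm34. The female ΔEcad lines have no peak at Wwc2 and none within 1 kb of a start of Stk4, while Ma_1057 and Ma_1069 have a peak about 4.01 kb inside Stk4.

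Nf2 (chr11:4765845-4849536, minus strand), which encodes merlin, did not separate the groups by covered length. Its covered length was 1.99 and 1.75 kb in male Ecad, 3.07 and 1.57 kb in female Ecad, 0.441 and 3.82 kb in male ΔEcad and 1.95, 2.74 and 2.09 kb in female ΔEcad, and the female ΔEcad values lay inside the range of the others. The promoter was called in all 9 lists. The strongest peak at the principal start was 387 to 723 bp wide, and stood at the 33.0th to 34.2nd percentile in female ΔEcad and at the 31.6th to 78.0th in the others. Farther inside the gene, a region over exon 14 (chr11:4784123-4785474) was called in Ma_1057 and Ma_1069 and in no other list. It holds an annotated internal start of Nf2 (chr11:4785107). Its peak stood at the 19.1st percentile in Ma_1057 and at the 51.0th in Ma_1069.

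Sav1 (chr12:69965012-69987002, minus strand), the scaffold of the STK3 and STK4 kinases, had the largest share of its window covered, at 11.0 ± 3.20% (SD, n = 9 lines), against 0.898 ± 1.02% at the lowest, Wwc2. Sav1 had 5.03, 4.47 and 3.105 kb in female ΔEcad, above the 2.35 and 2.64 kb of female Ecad. Male ΔEcad lines had 3.40 and 2.16 kb, below the 4.29 and 4.17 kb of male Ecad. Female ΔEcad overlapped the other 6 lines in kb, because Ma_1069 lay below both male Ecad lines and Ma_1062. Its start was called in all 9 lists, from the 24.3rd percentile in Ma_1456 to the 87.3rd in Ma_1064.

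**Figure D3:**
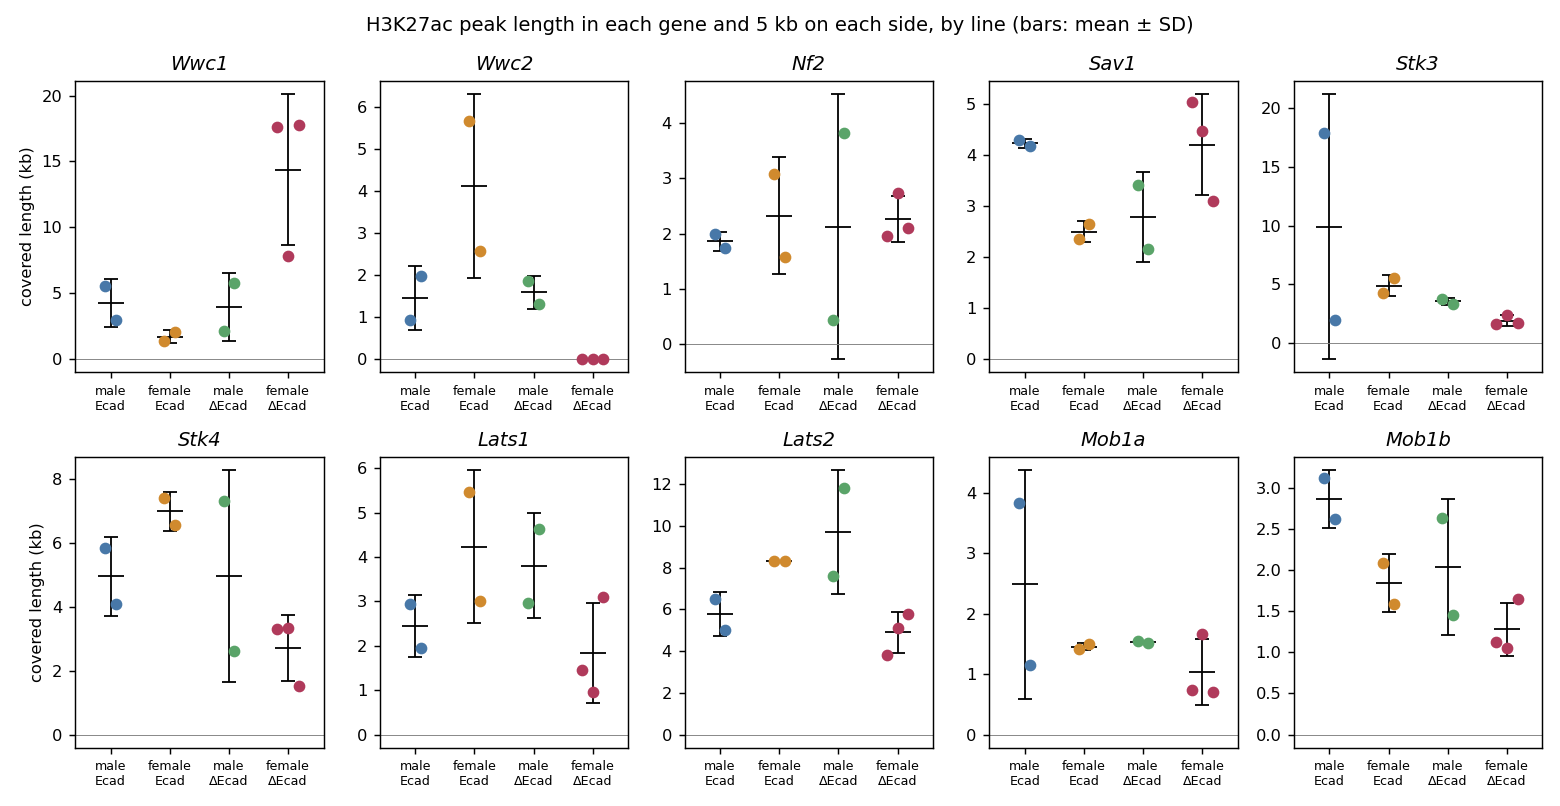
Length covered by H3K27ac peaks in kb (y axis, a separate scale for each gene, all including 0) for the 10 genes in the 4 groups, with points for lines and bars for mean ± SD. Wwc1 is higher in all 3 female ΔEcad lines than in the 6 others, Wwc2 is at 0 in them, and the other genes overlap.

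Stk3 and Stk4, which encode the MST2 and MST1 kinases, both had weak or missing marks at their starts in female ΔEcad lines. For Stk4 this was not limited to them. Its principal start stood at the 15.5th percentile or below in Ma_1014, Ma_1039 and Ma_1062 and had no peak in Ma_1456. Stk3 (chr15:34875496-35178921, minus strand) was called at its principal start in all 9 lists. The peak stood at the 11.9th, 28.5th and 1.56th percentile in Ma_1057, Ma_1064 and Ma_1069 and was 323, 454 and 297 bp wide. In the other lines it stood at the 88.8th (Ma_1007), 56.0th (Ma_1181), 33.3rd (Ma_1014), 47.7th (Ma_1039), 60.0th (Ma_1062) and 42.8th (Ma_1456), with widths from 668 to 2309 bp. Among 4151 genes with a peak at the principal start in every list, 19.3% had all female ΔEcad percentiles below all others and 0.482% above. Of the 10 genes, 7 had such peaks, and among these Stk3 and Lats2 were below and none was above. Covered length of Stk3 was 1.64, 2.45 and 1.715 kb in female ΔEcad and 1.98 to 17.8 kb in the others, where the highest value was Ma_1007 and the next 5.54 kb. Of 10 regions at Stk3, 6 were called in Ma_1007 alone, the largest list, and without that line the difference between the means, −4.20 kb, was −1.85 kb. No list called the start farthest upstream (23.1 kb from the principal one).

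Stk4 (chr2:164070322-164155524, plus strand) had a promoter call in all 6 other lists and in none of the 3 female ΔEcad lists, a pattern of 4.42% of the 11295 genes with a promoter call in at least 1 list. With 2.5 kb allowed instead of 1 kb, Ma_1057 was called as well and the pattern was lost. That call came from a peak in intron 3 (chr2:164083786-164084180), near an internal start 7.46 kb downstream of the principal one. Ma_1456 also had this peak. Its principal start was marked in 5 lines, at the 62.0th, 38.3rd, 5.32nd, 15.5th and 8.42nd percentile in Ma_1007, Ma_1181, Ma_1014, Ma_1039 and Ma_1062. A second region (chr2:164070381-164071802) was called in all 6 other lines near an upstream start of Stk4, and it also lies over the start of Tomm34, which is transcribed from the opposite strand 847 bp away. Marks for the 2 genes cannot be told apart there. Ma_1057 and Ma_1069 instead had a peak inside intron 1 (chr2:164077671-164078619), at the 54.0th and 30.6th percentile, which no other line had. A region in intron 10 (chr2:164141018-164143561) was called in all 9 lists. Covered length was 3.30, 3.34 and 1.51 kb in female ΔEcad, 4.08 and 5.84 kb in male Ecad and 7.42 and 6.56 kb in female Ecad. The male ΔEcad lines had 7.32 and 2.63 kb, so that Ma_1456 fell within the female ΔEcad range.

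Both LATS kinase genes kept their promoter mark in all 9 lists. At Lats1 (chr10:7681214-7716460, plus strand) the promoter peak stood between the 68.4th and the 90.7th percentile. Pcmt1 starts 78 bp away on the opposite strand, so the peak cannot be assigned to either gene. A second principal start of Lats1 (chr10:7691247) was called in 6 lists. Ma_1069 was the only female ΔEcad line among them, and Ma_1181 was the only other line without the call. Covered length was 1.44, 0.947 and 3.10 kb in female ΔEcad, 5.46 and 3.02 kb in female Ecad, 2.975 and 4.64 kb in male ΔEcad and 2.948 and 1.95 kb in male Ecad. Male ΔEcad lines were both above the male Ecad lines, with 2.975 kb against 2.948 kb in the nearest pair, and the female groups overlapped.

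Lats2 (chr14:57689662-57758388, minus strand), itself a known transcriptional target of YAP1, had 3.83, 5.10 and 5.77 kb in female ΔEcad and 8.33 kb in both female Ecad lines. In males the order was the opposite, with 7.62 and 11.8 kb in ΔEcad and 6.51 and 5.025 kb in Ecad. Female ΔEcad overlapped the other 6 lines through Ma_1181 alone. The peak at its principal start stood at the 40.2nd, 36.9th and 36.7th percentile in female ΔEcad and at the 46.9th to 79.0th in the other lines. Lats2 had 8 regions, of which 4 were called in all 9 lists, the most of any of the 10 genes. These were the principal start, an internal start 11.8 kb downstream, and a region each in introns 2 and 3. The widest, in intron 2 (chr14:57706336-57710124), covered 1291, 1239 and 2002 bp in female ΔEcad, 3630 and 3789 bp in female Ecad, 3466 and 3583 bp in male ΔEcad and 2039 and 1414 bp in male Ecad.

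The coactivators Mob1a (chr6:83326016-83343776, plus strand) and Mob1b (chr5:88720855-88764220, plus strand) had their promoter peak in all 9 lists. Mob1a was called between the 68.2nd and 95.2nd percentile, over a start that lies 108 bp from that of Mthfd2 on the opposite strand. Its covered length was 0.731, 1.655 and 0.695 kb in female ΔEcad and 1.14 to 3.82 kb in the other lines. The highest value, in Ma_1007, included part of a region at the neighbouring Bola3. Mob1b was called between the 45.0th and 84.8th percentile, and the 2 lowest values were those of Ma_1069 and Ma_1064. Its covered length was 1.12, 1.06 and 1.65 kb in female ΔEcad and 1.45 to 3.115 kb in the other lines, so the groups overlapped by Ma_1456 (1.45 kb) and Ma_1039 (1.59 kb) alone.

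**Figure D4:**
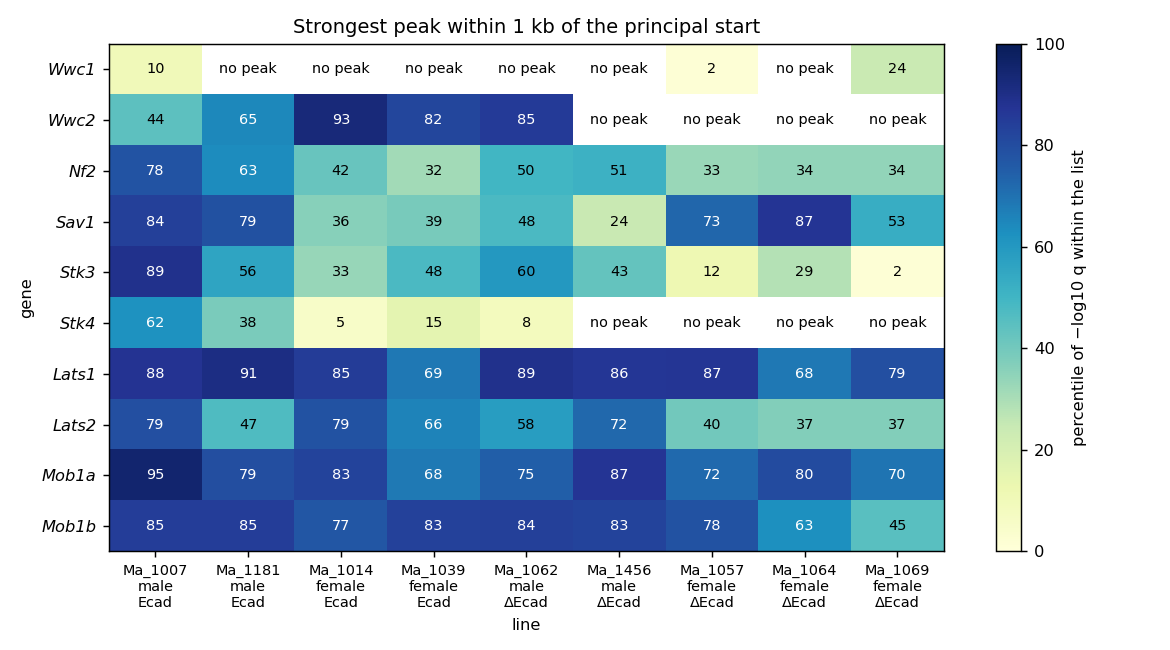
Percentile of −log10 q, within its own list, of the strongest peak within 1 kb of the principal start, for the 10 genes (rows) and 9 lines (columns), with white cells where no peak was called. Lats1 and Mob1a lie at 68.2 or above in every line, Wwc1 is at 23.9 or below where called, and Stk3 is lowest in the 3 female ΔEcad lines (11.9, 28.5 and 1.56).

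Over the 10 genes, 7 had a promoter call in all 9 lists, beside 40.3% of the 11295 genes, and 77 of 90 pairs of gene and list were called. The 3 exceptions were Wwc1 (3 lists), Wwc2 (5) and Stk4 (6). RefSeq promoters were matched for 9 of the 10 genes, Stk3 being the other. The promoters of the principal starts had a GC content between 56.8% (Mob1a) and 79.2% (Sav1) in the 250 bp before the start, above the median of 52.4% for all RefSeq promoters, and 14 to 43 CpG dinucleotides against a median of 6. The weakly marked Wwc1 promoter, with 67.2% GC and 22 CpG, was not apart from the others on this scale.

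No gene of the 10 separated all ΔEcad from all Ecad lines in either direction by covered length, beside 0.0992% above and 6.25% below over all genes. None separated all female from all male lines, beside 0.135% above and 5.17% below. Within females, ΔEcad lay above Ecad at Wwc1 and Sav1 (5.35% of all genes) and below at Wwc2, Stk3, Stk4 and Lats2 (42.2%). Within males, ΔEcad lay above Ecad at Lats1 and Lats2 (6.26%) and below at Sav1 (26.5%). Sav1, higher in females and lower in males, shared that combination with 1.74% of genes, and Lats2, with the reverse, with 3.26%. The 4 of 10 lower within females stand near the background share.

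The rest of the pathway was read in the same way. Of 28 further regulators, 27 had a peak. In female ΔEcad none lay above all other lines, beside 0.758% of all genes, and 3 lay below, Amotl2 and Rassf1 among them, beside 21.0% of all genes. Amotl2, an angiomotin family member that binds YAP1 and is among its known targets, had 1.20, 2.33 and 1.05 kb in female ΔEcad and 4.67 to 13.2 kb in the others. Rassf1, a partner of the MST kinases, had 1.39, 2.175 and 0.879 kb against 2.56 to 3.88 kb. Of 7 nuclear effectors, Yap1 and Tead3 lay below and none above, and the count of 2 in 7 stands near the same background of 21.0%. Yap1 had 3.95, 3.73 and 2.36 kb in female ΔEcad, next to 4.03 kb in Ma_1181 and up to 11.8 kb in Ma_1007. Tead3 had 1.615, 1.54 and 0.523 kb against 1.855 to 2.24 kb. Promoters of 18 further regulators and 4 effectors, Yap1, Amotl2 and Rassf1 among them, were called in all 9 lists. The median log2 ratio of female ΔEcad to other lines, on means with 0.1 kb added, was −0.77 for the 10 genes, −0.50 for the further regulators and −0.14 for the effectors, beside −0.88 over all 14120 genes. Of the 6 melanocyte markers, Sox10 and Dct lay below all other lines in female ΔEcad and the other 4 overlapped, beside the same 21.0% of all genes. Mlana had the higher mean in female ΔEcad (14.9, 8.49 and 16.5 kb against 4.78 to 8.80 kb). Summed marker length was 97.3 to 103.0 kb there and 106.5 to 151.5 kb in the other lines. Its part in the values above was not tested.

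**Figure D5:**
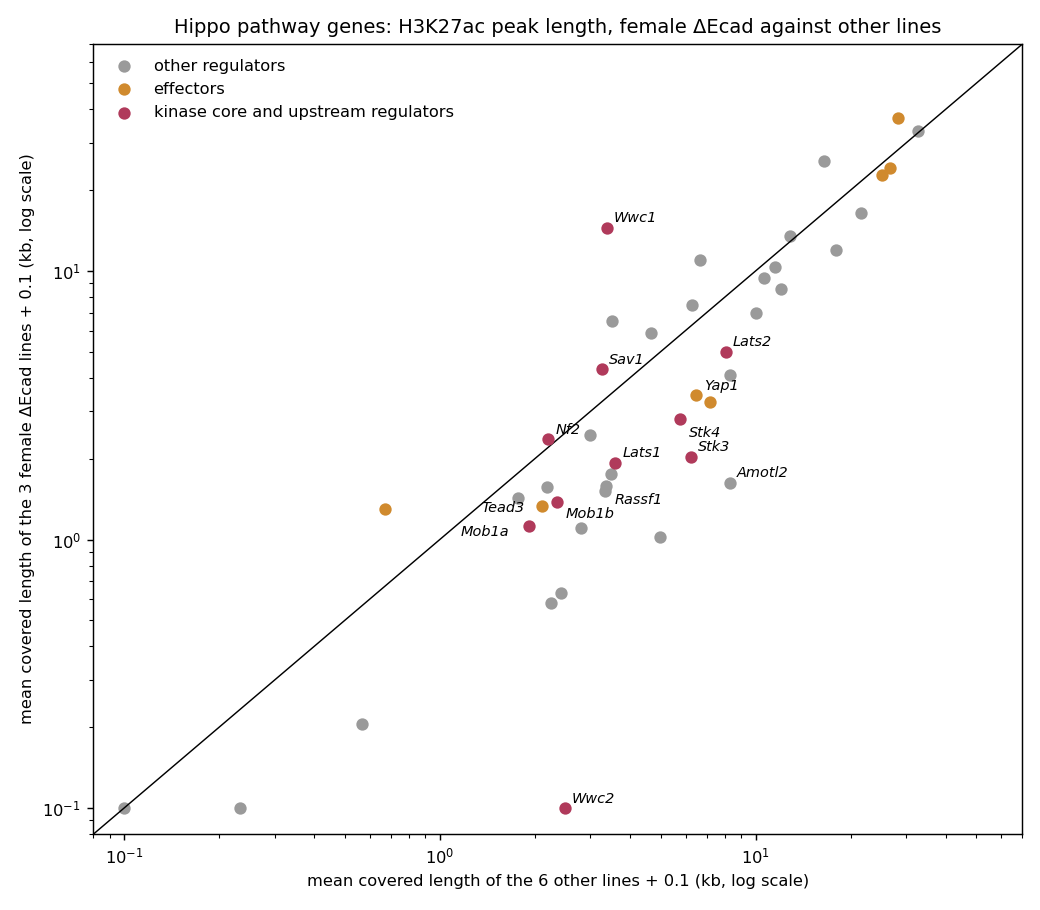
Mean covered length in the 3 female ΔEcad lines against the 6 other lines (both in kb plus 0.1, log axes) for the 10 genes, 28 further regulators and 7 effectors, with the line of equality and names for the 10 genes and for Amotl2, Rassf1, Yap1 and Tead3. Wwc1 (14.4 against 3.27 kb) stands farthest above the line and Wwc2 (0 against 2.38 kb) farthest below.

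Covered length over the 9 lines was most like that of Wwc1 at 5 genes, out of 8438 genes with a mean of at least 1 kb. These were Arsi (Pearson r = 0.970), Fam228b (0.967), Bst1 (0.966), Aspscr1 (0.958) and 4930455H04Rik (0.952). The correlations describe 9 lists that share list length and group. Bst1 had 3.885, 1.67 and 5.09 kb in Ma_1057, Ma_1064 and Ma_1069 and at most 0.981 kb in the others. Female ΔEcad overlapped the other lines at Aspscr1 (4.525 kb in Ma_1064, 4.89 kb in Ma_1456) and 4930455H04Rik (0.97 kb in Ma_1064, 1.14 kb in Ma_1007). At Arsi, Fam228b and Bst1 the groups did not overlap. All 5 genes were lower in Ma_1064 than in the other 2 female ΔEcad lines, as Wwc1 was. That likeness follows from the choice, because the genes were ranked on these same values.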

How the data were processed

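H3K27ac ChIP-seq was made from 9 mouse melanoma lines, and each line gave 1 deposited narrowPeak list, with no merging of lines before peaks were called. The submitters' processing notes name Bowtie2 2.4.5, MACS2 2.2.7.1 and deepTools 3.5.1.0.0 and the mm10 build. The notes give no settings, and which of the 4 input libraries, not analysed here, served which list is not given in the sources used here. The deposited score was 10 times −log10 q cut to a whole number in at least 99.8% of each list. The fold enrichment of a peak, also deposited, is a linear ratio. Values of −log10 p and −log10 q came from the authors, and no −log10 q was below 5, that is a q-value threshold of 1e-05. These describe peaks within a list only, so peaks were ranked by −log10 q within their list. Lists hold no read counts and no depth, so no counting interval is given.

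Genes and starts came from GENCODE M21. Covered length is the kb of a gene with 5 kb on each side under peaks, a promoter was called when a peak came within 1 kb of any transcript start, and the principal start is that of the APPRIS principal transcripts. Peaks of the 9 lists in a window were merged into regions, called with at least 1 bp. Groups were compared by whether lines overlapped, beside the share of all genes with the same pattern. Apart from a Dixon check for single distant lines, no test was made, because the genes and lists were chosen with earlier results of these data known. All 10 genes are named. Of other pathway genes, those are named whose covered length in female ΔEcad lines lay above or below all other lines, except 1 that is not reported here. None had promoter calls in exactly the female ΔEcad, the Ecad, the ΔEcad, the female or the male lines. The 5 genes most like Wwc1 were ranked by Pearson r. Scripts ran in Python 3.11.15 with NumPy 2.4.6 and pysam 0.24.0 and were tested on simulated peaks.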

Additional observations from a re-analysis of the deposited data

Results flagged for a closer look

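Lats2 and Sav1 changed in opposite directions with genotype in the 2 sexes, with no overlap between lines on either side, and the difference between the sexes was not tested. For Lats2, ΔEcad minus Ecad was −3.43 kb of covered length in females and 3.95 kb in males. For Sav1 it was 1.71 kb in females and −1.45 kb in males. With lengths scaled to the total of each list, the differences were −1.58 and 4.95 kb at Lats2, where the female groups then overlapped, and 2.90 and −0.64 kb at Sav1, where the male groups then overlapped. The male groups also overlapped at Sav1 with equally long lists (−1.75 kb).

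Mob1a in Ma_1007 had 3.82 kb of covered length, far from the 1.14 to 1.49 kb of the other 3 Ecad lines. The gap to the nearest line was 0.869 of the range of the 4 lines, above the critical value of Dixon's test. Of 20 sets of lines examined in this way (10 genes, Ecad and ΔEcad), this was the single one past its critical value, and chance alone gives about 1 in 20. Ma_1007 had the longest list, and its peak at the neighbouring Bola3 was 3263 bp wide.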

How the results depend on the processing

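Wwc1 stayed above all other lines in female ΔEcad in every alternative run (equally long lists of 20741 peaks, −log10 q of at least 10, the gene body alone, 20 kb on each side, scaling to the total covered length). Wwc2 stayed below in each of these except equally long lists, where Ma_1007 lost its peak and Stk3 was below instead. The Wwc1 difference was 16.0 kb when scaled and 9.41 to 14.4 kb without single lines. The count of genes above all others was 2 with 20 kb on each side and 2 when scaled, with Sav1 added both times, and 1 to 2 without single lines (2 without Ma_1069). The count below was 3 with the higher −log10 q (Stk3 and Mob1b added), 2 with the gene body alone (Mob1b) and 3 with 20 kb on each side (Lats1 and Mob1a), and 1 to 3 without single lines (3 without Ma_1181, Ma_1064 or Ma_1069, 2 without Ma_1456). The region of Wwc1 called in female ΔEcad alone was not kept when a line had to cover at least 0.5 of it (0 regions, since Ma_1064 covered 768 of 5138 bp), and 1 to 6 such regions were counted without single lines (6 without Ma_1064, 2 without Ma_1007, Ma_1456 or Ma_1069). The cause of these shifts was not tested. Promoters called in every list numbered 5 to 7 and calls 59 to 78 over the definitions, including principal starts alone (7 and 76), chosen after seeing the data. With a peak required over the start itself, neither Wwc1 nor Stk4 was called in any list. Stk3 was then called in 4 lists, none of them female ΔEcad. Of the female ΔEcad lines, Stk3 was called in Ma_1064 alone with −log10 q of at least 10, and in Ma_1069 alone with equally long lists. Within 2.5 kb Stk4 was also called in Ma_1057. For the 9 other genes, the difference moved by more than 1 SD in 4 of 45 values under the other settings and in 0 of 81 without single lines. The sign changed only at Nf2, whose groups overlapped, from 0.156 kb to −0.177 kb without Ma_1062 and −0.0833 kb without Ma_1064. No paired analysis was possible because replicate numbers follow the order of deposition and groups were not compared by a test. The unknown depth limits all calls of absence.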

Other observations

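Among the further regulators, chosen here after their values were seen, Frmd6, which encodes a FERM protein upstream of the MST kinases, had 14.4, 10.1 and 8.17 kb of covered length in female ΔEcad lines and 4.66 to 8.83 kb in the others, overlapping through Ma_1069 and female Ecad. Tjp1, a tight junction scaffold, had 5.38, 6.835 and 7.08 kb against 2.23 to 5.74 kb. Fat1, an atypical cadherin, had no peak in Ma_1057 and Ma_1064 and 2.78 kb in Ma_1069, against 1.15 to 7.15 kb. Ptpn14, a phosphatase that binds YAP1, varied within female ΔEcad from 0.5 kb in Ma_1069 to 27.2 kb in Ma_1064.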
